A study of Mus musculus with 12 samples.

Results

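The genes described here are the integrin subunits and laminin chains of 3T3-L1 cells, chosen by symbol alone: every gene whose symbol starts with Itga or Itgb, or is a laminin chain name of the Lama, Lamb or Lamc series. The rule found 40 of the 18255 genes listed over the series. They comprise 18 integrin alpha subunits, 8 integrin beta subunits, 4 laminin alpha, 3 laminin beta and 3 laminin gamma chains. The other 4 symbols, Itgb1bp1, Itgb1bp2, Itgb3bp and Itgbl1, match the rule but encode no integrin subunit. A filter on low counts left 30 of the 40. The 10 that failed it were Itga2, Itga4, Itga9, Itgam, Itgax, Itgb6, Itgb8, Itgb1bp2, Lama3 and Lamc3, with at most 10 counts in any library. A further 4 passed through 1 stage alone: before differentiation no library had over 6 counts of Itgad, Itgae or Itgal, and after it none had over 9 of Itgb7. Lama2, with 0, 6, 1, 18, 1 and 8 counts before differentiation, also needed the other stage to be kept. So did Lama5, with 9, 7, 13, 9, 19 and 9 counts after it. The filter kept all these members through the stage where they were higher, so their stage differences are a description with no test.

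3T3-L1 is a mouse line of fibroblast-like preadipocytes. RNA was sequenced from a control line (NC) and from a line overexpressing LIGHT, the cytokine encoded by Tnfsf14, each before (Undiff) and after (Diff) beige differentiation, with 3 libraries in each of the 4 groups. The differentiated groups of both lines had received dexamethasone, IBMX, rosiglitazone, triiodothyronine, insulin and indomethacin for 48 h and then a maintenance medium with rosiglitazone, triiodothyronine and insulin. The labels do not say how LIGHT was delivered, whether each line was 1 clone, or on which day cells were harvested. Nor do they say that the 3 libraries of a group were separate cultures, so a p-value reflects only how these libraries spread, which may be technical.

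Integrins are cell surface receptors built of 1 alpha and 1 beta subunit. The alpha subunit largely sets which matrix protein is bound: some recognise the RGD motif of fibronectin and vitronectin, others laminins or collagens, and a further set is used by leukocytes. Laminins are trimers of 1 alpha, 1 beta and 1 gamma chain that form the basement membrane sheet around epithelia, vessels, muscle fibres and fat cells. Preadipocytes live in a fibronectin-rich matrix, and maturing adipocytes surround themselves with a basement membrane.

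Libraries held 16334079 to 19686675 expected counts. The floor of 3 counts was worth 0.152 to 0.184 CPM, counts scaled to library size. The overexpressed gene went against 2 labels. Tnfsf14 had 0, 1 and 0 counts in NC-Undiff, and 38, 53 and 58 in LIGHT-Undiff. It had 113, 0 and 0 counts in NC-Diff and 0, 148 and 122 in LIGHT-Diff. The libraries labelled NC-Diff 1 and LIGHT-Diff 1 therefore carry the Tnfsf14 level of the other line. They stay in their labelled groups, and the counts of every comparison and the fold changes of the main members are also given without them, which leaves 2 libraries in each differentiated group. Adipocyte markers, 8 of 8 listed, summed to 33.3 to 59 CPM in the undifferentiated libraries and 13100 to 18900 CPM in the differentiated ones. In bulk RNA, fewer cells of a type and less RNA per cell cannot be told apart.

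Differentiation of the control line changed 20 of the 30 tested members (66.7%), with 13 higher and 7 lower. Of all genes tested in that comparison 63.9% were called, 32.2% higher and 31.7% lower, so the members' share lay near the background. The 4 members with under 10 counts throughout 1 stage are among the 20 in each line, 3 higher and 1 lower. So are Lama5, lower in both lines, and Lama2, higher in control cells. None of these members supports anything about the share. In the LIGHT line 11 members rose and 9 fell (66.7%), beside 58.6% of all genes, with 29.5% higher and 29.1% lower. The median log2 fold change of the members was 0.35 in the control line and 0.15 in the LIGHT line, where that of all genes was 0.00 and -0.00. The change lay in which members moved. The fibronectin and vitronectin receptor subunits Itga5, Itgav and Itgb5 fell, as did Itgb1, the beta subunit shared by the most integrins. The laminin-binding alpha subunits Itga6 and Itga7 rose while Itga3 fell, and the laminin chains Lama4, Lamb1 and Lamc1 rose. Without the 2 libraries the counts were 13 higher and 7 lower in the control line, beside 70.7% of all genes called (35.8% higher and 34.9% lower). They were 13 higher and 9 lower in the LIGHT line, beside 64.1% (32.3% higher and 31.9% lower). Of the 20 members called in either line, 19 were called in the same direction without them. The counts then no longer included Lama5 in control cells or, in LIGHT cells, Lamc1 (edgeR adjusted p = 0.0695). Called in addition were Lamb2 in control cells, by -0.22 ± 0.09 log2 (edgeR adjusted p = 0.04), and Itga2b and Itgb2 in LIGHT cells, by 0.41 ± 0.15 and 0.93 ± 0.27 log2. Lama2 was counted there as well, with a fitted difference of 1.81 log2.

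The promoters of 4 members, picked after their values were seen, are shown: 3 that were lower after differentiation and Lamb1, which rose. RefSeq windows on GRCm38.p6, from 250 bases before to 50 after the start, were matched by gene identifier for 26 of the 40 members. Each is printed 5′ to 3′ on the gene's own strand. Capitals mark GC boxes (GGGCGG, or CCGCCC on the other strand) and CCAAT boxes (CCAAT, or ATTGG).
Itga5, chr15:103366742-103367041, minus strand, is that of the alpha subunit of the fibronectin receptor:
Itga5: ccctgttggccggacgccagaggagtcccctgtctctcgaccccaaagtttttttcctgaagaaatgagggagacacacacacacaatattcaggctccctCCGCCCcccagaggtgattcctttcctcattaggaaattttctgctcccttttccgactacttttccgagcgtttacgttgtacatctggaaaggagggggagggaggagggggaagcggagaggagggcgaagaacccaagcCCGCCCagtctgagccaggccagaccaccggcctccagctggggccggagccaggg
Itgb5, chr16:33829415-33829714, plus strand, is that of a vitronectin receptor beta subunit:
Itgb5: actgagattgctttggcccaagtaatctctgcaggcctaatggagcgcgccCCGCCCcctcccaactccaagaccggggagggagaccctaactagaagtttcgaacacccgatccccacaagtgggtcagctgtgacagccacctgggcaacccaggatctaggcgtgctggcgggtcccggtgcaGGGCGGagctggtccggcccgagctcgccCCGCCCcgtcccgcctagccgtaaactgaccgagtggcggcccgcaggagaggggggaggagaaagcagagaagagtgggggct
Itgb7, chr15:102231886-102232185, minus strand, is that of a lymphocyte-type beta subunit:
Itgb7: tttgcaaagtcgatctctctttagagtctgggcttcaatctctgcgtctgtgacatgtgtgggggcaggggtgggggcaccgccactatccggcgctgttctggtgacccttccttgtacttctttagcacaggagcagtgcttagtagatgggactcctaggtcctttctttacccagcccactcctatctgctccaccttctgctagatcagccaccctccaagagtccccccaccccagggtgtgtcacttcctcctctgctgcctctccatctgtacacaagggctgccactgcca
Lamb1, chr12:31265043-31265342, plus strand, is that of a laminin beta chain:
Lamb1: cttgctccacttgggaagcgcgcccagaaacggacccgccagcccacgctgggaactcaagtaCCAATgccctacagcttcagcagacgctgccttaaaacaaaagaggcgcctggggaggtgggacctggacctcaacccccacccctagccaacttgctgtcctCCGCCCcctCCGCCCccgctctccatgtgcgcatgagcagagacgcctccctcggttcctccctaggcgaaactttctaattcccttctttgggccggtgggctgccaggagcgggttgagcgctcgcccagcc
Itga5 held 2 GC boxes, Itgb5 held 3, and Lamb1 held 2 and 1 CCAAT box. The window of Itgb7 held none of the motifs searched on both strands, which also included the AP-1 element TGANTCA, the TEAD element GGAATG and the DR1 element. Of all 32851 windows of this length 35.7% held a GC box, 37.4% a CCAAT box, 7.81% the AP-1 element, 14.7% the TEAD element and 0.0396% the DR1 element. Over the members' 29 windows these were found in 13, 5, 3, 3 and 0. A match describes letters in this window only.

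Itga5, the alpha subunit of the main fibronectin receptor, was the most abundant alpha subunit of the undifferentiated cells, with an FPKM level, which is scaled by gene length, of 98.1 ± 5.94 (SD, n = 3) in NC-Undiff. Its CPM were 429, 382 and 403 in NC-Undiff and 243, 215 and 217 in NC-Diff. The control libraries of the 2 stages did not overlap, and the fold change was -0.85 ± 0.08 log2 (SE; edgeR adjusted p = 8.01e-07). LIGHT-Undiff stood at 258, 253 and 293 CPM and LIGHT-Diff at 219, 222 and 217 CPM, a smaller fall of -0.29 ± 0.08 log2 (edgeR adjusted p = 0.00544). LIGHT-Undiff lay below NC-Undiff in every library, and the 2 differentiated groups overlapped.

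Itgav encodes an alpha subunit that pairs with several beta subunits to bind vitronectin and fibronectin. Its CPM were 185, 161 and 154 in NC-Undiff and 72.3, 61.4 and 51.7 in NC-Diff, without overlap, a change of -1.43 ± 0.12 log2 (edgeR adjusted p = 4.92e-07). In the LIGHT line it went from 128, 117 and 145 to 51.4, 59.2 and 57.8 CPM, again without overlap and by -1.21 ± 0.12 log2 (edgeR adjusted p = 2.99e-06). Its vitronectin partner fell as well. Itgb5, which pairs with Itgav, lay at 194 to 215 CPM in NC-Undiff, 202 to 218 in LIGHT-Undiff, 104 to 110 in NC-Diff and 112 to 117 in LIGHT-Diff, and fell by 0.94 and 0.86 log2 in the control and LIGHT line. Its edgeR adjusted p was 3.68e-08 and 1.11e-07.

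Itgb1, the beta subunit shared by the most integrins, was the most abundant member of all per length, at 255 ± 24.4 FPKM in NC-Undiff and 241 ± 3.75 in LIGHT-Undiff. It had 1090, 964 and 918 CPM in NC-Undiff and 629, 495 and 474 in NC-Diff, and 964, 934 and 945 CPM in LIGHT-Undiff and 461, 579 and 573 in LIGHT-Diff. The stages did not overlap in either line. The falls were -0.90 ± 0.12 log2 in the control line (edgeR adjusted p = 2.58e-05) and -0.82 ± 0.12 in the LIGHT line (edgeR adjusted p = 6.74e-05). While its level fell, Itgb1 held 72.5% to 79.2% of the summed beta subunit FPKM in every library. The sum of all beta subunits went from 334 ± 25.8 to 165 ± 24.3 FPKM in the control line and from 314 ± 5.85 to 172 ± 20.3 in the LIGHT line.

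Itgb3, which pairs with Itgav or, in platelets, with Itga2b, went the other way from Itgb1 and Itgb5. It had 16, 14.2 and 13.6 CPM in NC-Undiff, 25.1, 26.8 and 27.3 in NC-Diff, 16.4, 17.9 and 17.6 in LIGHT-Undiff, and 28, 25.9 and 23.6 in LIGHT-Diff. Every differentiated library lay above every undifferentiated one. The rise was 0.86 ± 0.09 log2 in control cells (edgeR adjusted p = 4.91e-06) and 0.58 ± 0.09 in LIGHT cells (edgeR adjusted p = 0.000155). Per length Itgb3 stayed far below Itgb1, at 4.43 ± 0.0987 FPKM in NC-Diff.

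Laminin-binding alpha subunits took the opposite course to Itga5, with 1 exception. The beta subunit Itgb1 fell in both lines, as given above, so this concerns the alpha subunits only. Itga6, a laminin-binding alpha subunit that pairs with Itgb1 or Itgb4, had 46.8, 40.3 and 40.9 CPM in NC-Undiff and 114, 157 and 153 in NC-Diff. In the LIGHT line it had 30.2, 30.2 and 29.2 CPM before and 149, 109 and 113 after differentiation. The stages were far apart in both lines. Itga6 rose by 1.73 ± 0.14 log2 in control cells (edgeR adjusted p = 2.55e-07) and by 2.05 ± 0.14 in LIGHT cells (edgeR adjusted p = 9.05e-08). Its FPKM level went from 7.58 ± 0.664 to 23.1 ± 3.45 in the control line, while that of Itga5 went from 98.1 ± 5.94 to 50.3 ± 4.66.

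Itga7, known as the main laminin receptor subunit of skeletal muscle, was near 1 CPM before differentiation. It had 0.924, 0.562 and 1.05 CPM in NC-Undiff and 26.5, 65.2 and 62.9 in NC-Diff. LIGHT-Undiff had 0.827, 1.26 and 0.859 CPM and LIGHT-Diff 62.1, 26.6 and 27.8. Within each differentiated group the library labelled 1 lay apart from the other two and beside the libraries of the other line. The rise was 5.92 ± 0.51 log2 in control cells (edgeR adjusted p = 5.27e-07) and 5.28 ± 0.49 in LIGHT cells (edgeR adjusted p = 1.54e-06). Muscle markers, 4 of 5 listed, summed to 7.03 to 10.8 CPM in the undifferentiated libraries and 16.9 to 29.5 in the differentiated ones. Des averaged 6.79 CPM in NC-Undiff and 20.8 in NC-Diff, and 6.25 and 18.6 in the LIGHT line. Acta1 averaged 3.33 and 3.91 CPM in the control line and 1.32 and 2.96 in the LIGHT line. Myog and Ckm averaged at most 0.0202 and 0.0208 CPM in any group. The part of these markers in the rise of Itga7 was not tested. Itga7 overlaps Mettl7b in the RefSeq annotation, which lay at 0.419 to 2.43 CPM in every library.

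Itga3, which also binds laminins, was the exception. It had 26.8, 22.3 and 19.1 CPM in NC-Undiff and 19.4, 16.2 and 19.1 in LIGHT-Undiff, against 1.62, 1.94 and 3.08 in NC-Diff and 1.25, 0.739 and 2.13 in LIGHT-Diff. The stages were separate in both lines. Itga3 fell by 3.35 log2 in control cells (edgeR adjusted p = 4.24e-07) and by 3.74 in LIGHT cells (edgeR adjusted p = 3.69e-07). Itgb4, the partner of Itga6 in hemidesmosomes, lay between 0.378 and 1.67 CPM in every library and passed no test.

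**Figure D1:**
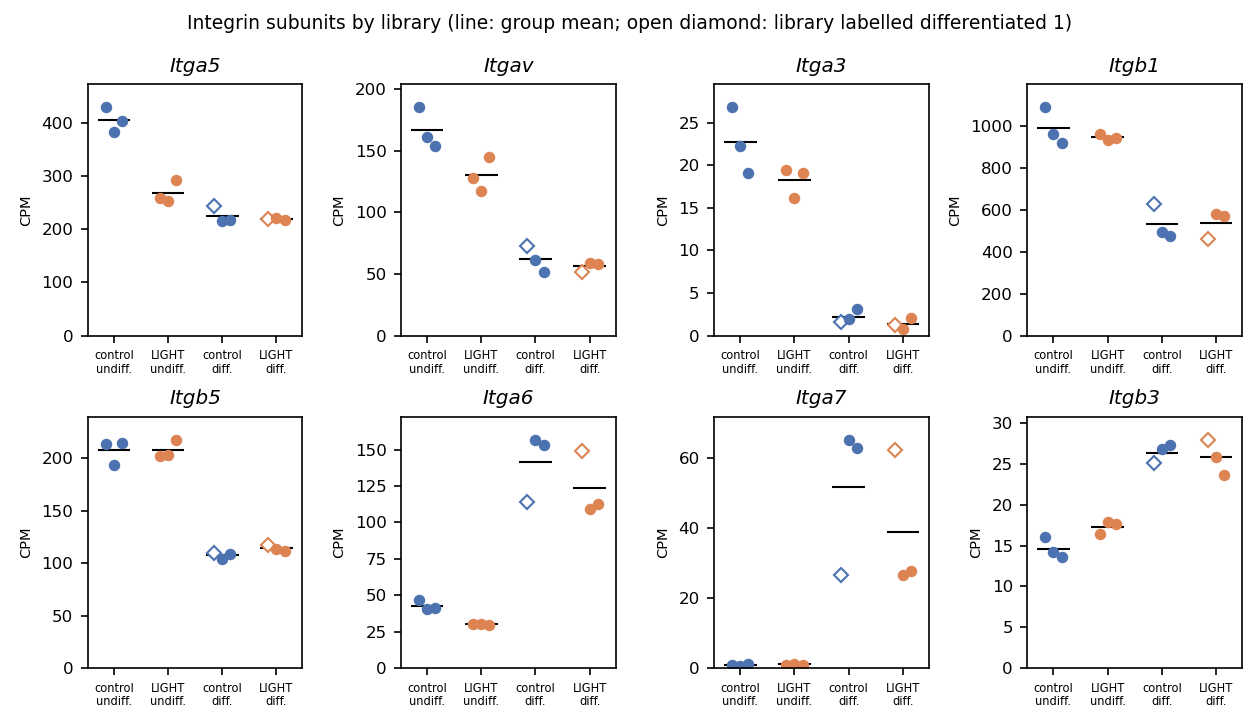
Levels of integrin subunits by library in each of the 4 groups, in CPM; points are libraries, lines are group means and open diamonds are the libraries labelled NC-Diff 1 and LIGHT-Diff 1. Itga5, Itgav and Itgb1 sit lower after differentiation and Itga6 and Itga7 higher.

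To see the balance of receptors, the FPKM of all alpha subunits was summed by ligand class, a textbook grouping made after the values were seen and not tested. The RGD class (Itga2b, Itga5, Itga8 and Itgav) held 87.8% to 89% of alpha subunit FPKM in NC-Undiff and 85.5% to 85.9% in LIGHT-Undiff. It held 52.9% to 68.4% in NC-Diff and 53.9% to 68.1% in LIGHT-Diff. The laminin class (Itga3, Itga6 and Itga7) went from 8.28% to 9.35% in NC-Undiff to 25.1% to 38.1% in NC-Diff. In the LIGHT line it went from 8.22% to 9.61% to 26.9% to 36.8%. In each differentiated group the library labelled 1 lay at the end of the range where the other line's libraries stand.

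**Figure D2:**
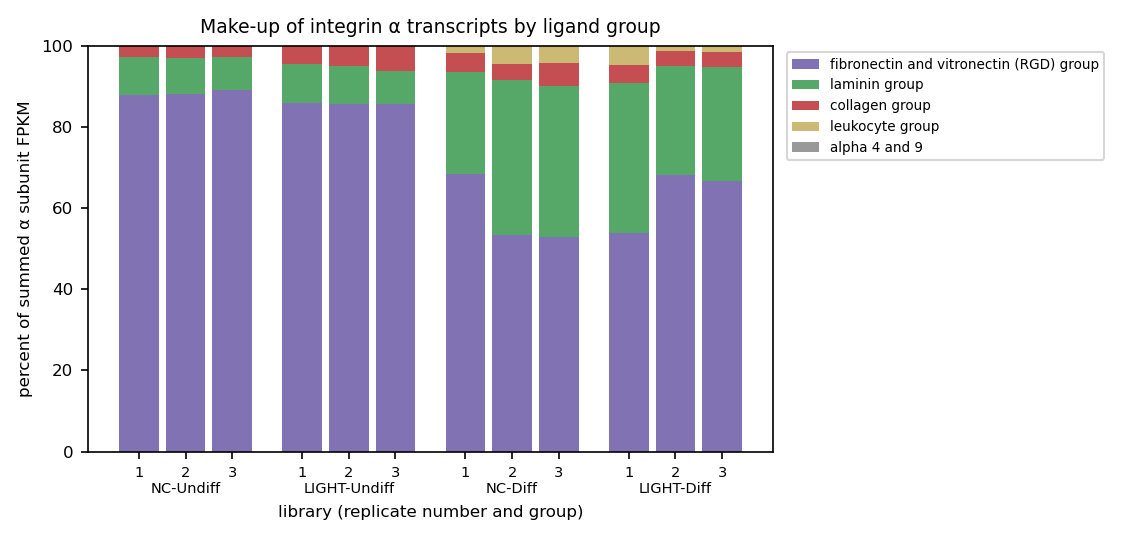
Share of summed integrin alpha FPKM, in percent, for each library, with colours for ligand classes. The RGD class falls from 85.5% to 89% before differentiation to 52.9% to 68.4% after it, and the laminin class rises.

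Changes among collagen receptor subunits were small. Itga1, a collagen IV binding subunit, had 12.5, 11.2 and 10.6 CPM in NC-Undiff and 14.2, 19.1 and 20.4 in NC-Diff. It rose by 0.65 ± 0.22 log2 in control cells (edgeR adjusted p = 0.0184), and this call was lost without NC-Undiff 2 (0.0512), NC-Undiff 3 (0.0626) or NC-Diff 3 (0.066). LIGHT-Undiff had 11, 11.4 and 17.9 CPM and LIGHT-Diff 17.1, 11.4 and 11.4, a difference of -0.02 ± 0.22 log2 (edgeR adjusted p = 0.949). Itga11, a fibroblast collagen receptor, had 5.71, 5.11 and 3.85 CPM in NC-Undiff, 5.66, 3.76 and 6.1 in NC-Diff, 7.56, 8.54 and 8.86 in LIGHT-Undiff, and 6.86, 4.28 and 3.66 in LIGHT-Diff. It fell in LIGHT cells by 0.76 log2 (edgeR adjusted p = 0.0196), and this call was lost without LIGHT-Undiff 2 (0.0512), LIGHT-Undiff 3 (0.0593), LIGHT-Diff 2 (0.0682) or LIGHT-Diff 3 (0.0801). Itga10, a cartilage collagen receptor, lay at 0.249 to 1.57 CPM and Itga8, which binds nephronectin, at 0.0537 to 1.33 CPM, and neither passed a test. Itga1 overlaps Pelo, at 16.6 to 32.9 CPM.

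Members best known from leukocytes appeared at low levels in differentiated cells. Itgad, an alpha subunit that pairs with Itgb2, had 0, 0.0562 and 0 CPM in NC-Undiff, and 4.6, 16.1 and 15.6 in NC-Diff. In the LIGHT line it had 0.177, 0.157 and 0 CPM before and 17.7, 3.12 and 3.6 after differentiation. Only differentiated libraries held more than 1 CPM, and NC-Diff held 628 counts over 3 libraries against 1 in NC-Undiff, a ratio of 642 (95% counting interval 115 to 25400). Without the 2 libraries the ratio was 827 (148 to 32700). These intervals pool the libraries of a group and leave out the spread between them, so they are not a test of the stage.

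Itgae, the partner of Itgb7 that binds E-cadherin, had at most 0.175 CPM in NC-Undiff and 1.89 to 2.54 in NC-Diff, and at most 0.322 in LIGHT-Undiff and 1.11 to 2.37 in LIGHT-Diff. Itgal, the alpha subunit of LFA-1, had 2 counts over NC-Undiff and 41 over NC-Diff, a ratio of 21 (95% counting interval 5.45 to 179). The interval of Itgal also leaves out the spread between libraries and is not a test of the stage. No stage test is given for Itgad, Itgae and Itgal, which the filter kept through the differentiated libraries alone. Itgb2, the beta partner of Itgad and Itgal in leukocytes, had 1.27 to 1.98 CPM in NC-Undiff and 2.67 to 3.54 in NC-Diff, a rise of 0.85 ± 0.32 log2 (edgeR adjusted p = 0.0341). Itgam and Itgax did not pass the filter. Leukocyte markers, 6 of 9 listed, summed to 2.04 to 4.73 CPM before and 2.12 to 2.87 after differentiation, with Ptprc and Itgam at means of at most 0.464 and 0.0197 CPM. Single markers moved in opposite ways. Lyz2 averaged 2.09 CPM in NC-Undiff and 0.142 in NC-Diff. Cd68 averaged 0.401 CPM in LIGHT-Undiff and 1.5 in LIGHT-Diff, and 1.26 and 1.28 in the control line. Reads of a gene that overlaps another cannot be told apart, since strand use is not given. Itgad overlaps Cox6a2, at 3.42 to 7.11 CPM, and Itgae overlaps Haspin, whose CPM were 12.6 to 15 in NC-Undiff and 5.6 to 8.58 in NC-Diff.

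Itgb7, the beta subunit of lymphocyte homing receptors, was near the counting floor after differentiation. It had 16.6, 16 and 17.7 CPM in NC-Undiff, 0.187, 0.121 and 0.162 in NC-Diff, 2.84, 2.88 and 2.52 in LIGHT-Undiff, and 0.561, 0.211 and 0.305 in LIGHT-Diff. No library of one undifferentiated line overlapped the other, and both differentiated groups lay below both. The fitted stage difference was -6.68 log2 in control and -2.94 in LIGHT cells, with no test given, since the filter kept Itgb7 through the undifferentiated libraries alone. Before differentiation it was lower in LIGHT cells by -2.61 ± 0.19 log2 (edgeR adjusted p = 5.34e-06). Both partner subunits that form its receptors, Itga4 and Itgae, were at most 0.322 CPM in undifferentiated libraries.

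Of the abundant laminin chains, Lama4 and Lamb1 rose in both lines. Lama4, the laminin alpha chain of vessel and adipocyte basement membranes, held 99% to 99.6% of laminin alpha FPKM in every library. It had 124, 104 and 101 CPM in NC-Undiff and 274, 263 and 268 in NC-Diff, a rise of 1.29 ± 0.10 log2 (edgeR adjusted p = 2.34e-07). LIGHT-Undiff had 158, 166 and 170 CPM and LIGHT-Diff 280, 223 and 218, a rise of 0.54 ± 0.10 log2 (edgeR adjusted p = 0.000474). LIGHT-Undiff lay above NC-Undiff in every library, and the 2 differentiated groups overlapped. Endothelial markers, 5 of 5 listed, summed to 0.498 to 1.12 CPM in every library.

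Lamb1, the widespread laminin beta chain, had 287, 227 and 240 CPM in NC-Undiff and 384, 474 and 470 in NC-Diff, and 170, 169 and 184 CPM in LIGHT-Undiff and 467, 339 and 325 in LIGHT-Diff. It rose by 0.82 ± 0.14 log2 in control cells (edgeR adjusted p = 0.000197) and by 1.11 ± 0.14 in LIGHT cells (edgeR adjusted p = 1.92e-05), without overlap of the stages in either line. Lamb2, an alternative beta chain, had 125, 94.2 and 96 CPM in NC-Undiff, 116, 84.7 and 92.9 in NC-Diff, 135, 138 and 145 in LIGHT-Undiff, and 94.6, 93.3 and 93 in LIGHT-Diff. It fell in LIGHT cells by 0.57 log2 (edgeR adjusted p = 0.00119), and its difference in control cells was -0.11 ± 0.12 (edgeR adjusted p = 0.454). Lamb1 therefore went from 54.3% to 55.1% of laminin beta FPKM in LIGHT-Undiff to 76.4% to 81.7% in LIGHT-Diff, and from 68.7% to 70.5% to 75.5% to 83.7% in the control line.

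Lamc1, the gamma chain shared by most laminins, had 259, 215 and 216 CPM in NC-Undiff and 294, 294 and 299 in NC-Diff, and rose by 0.36 ± 0.11 log2 in control cells (edgeR adjusted p = 0.0117). This call was lost without NC-Undiff 2 (0.0506). LIGHT-Undiff had 204, 197 and 224 CPM and LIGHT-Diff 306, 235 and 227, a difference of 0.30 ± 0.11 log2 (edgeR adjusted p = 0.0336). The call in the LIGHT line was lost without LIGHT-Undiff 1 (0.0902), LIGHT-Undiff 2 (0.111) or LIGHT-Diff 1 (0.157), where its fold change was 0.15.

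Lamb3, a chain of epithelial laminin, was rare. Lamb3 had 0.981, 0.899 and 1.11 CPM in NC-Undiff and 3.86, 3.76 and 3.51 in NC-Diff, and 0.177, 0.314 and 0.215 in LIGHT-Undiff and 5.05, 3.8 and 3.41 in LIGHT-Diff. It rose by 1.89 ± 0.25 log2 in control cells (edgeR adjusted p = 2.81e-05) and by 4.07 ± 0.30 in LIGHT cells (edgeR adjusted p = 1.91e-07). Epithelial markers, 4 of 5 listed, summed to 0.115 to 0.506 CPM before and 1.68 to 11 CPM after differentiation, with Krt18 at 0 in the undifferentiated groups. Krt8 and Krt18 averaged 4.53 and 1.96 CPM in NC-Diff. Krt14 and Cdh1 averaged at most 0.404 and 0.0203 CPM in any group, and Epcam was not listed. The part of these markers in the rise of Lamb3 was not tested. Lama2 had at most 0.337 CPM in NC-Undiff and 1.39 to 1.46 in NC-Diff. Its fitted stage difference was 3.35 log2 in control cells and 1.67 in LIGHT cells. Lama5, a chain of many adult basement membranes, had 0.75 to 1.46 CPM in NC-Undiff and 0.424 to 0.702 in NC-Diff. By the fit it was lower after differentiation by 1.04 log2 in control cells and by 1.31 in LIGHT cells. No stage test is given for Lama2 and Lama5, which the filter kept through the stage where they were higher.

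Itgb1bp1, which binds the tail of Itgb1 and restrains its activation, lay between 43.2 and 53.4 CPM in every library. It was 0.18 ± 0.06 log2 higher after differentiation in LIGHT cells (edgeR adjusted p = 0.026), and its difference in control cells was -0.05 ± 0.06 (edgeR adjusted p = 0.498). Itgb3bp, a kinetochore protein, had 5.25, 4.66 and 3.56 CPM in NC-Undiff, 8.27, 6.97 and 5.85 in LIGHT-Undiff, 5.78, 5.45 and 4.43 in NC-Diff, and 5.05, 5.54 and 6.76 in LIGHT-Diff, and passed no test between the stages.

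**Figure D3:**
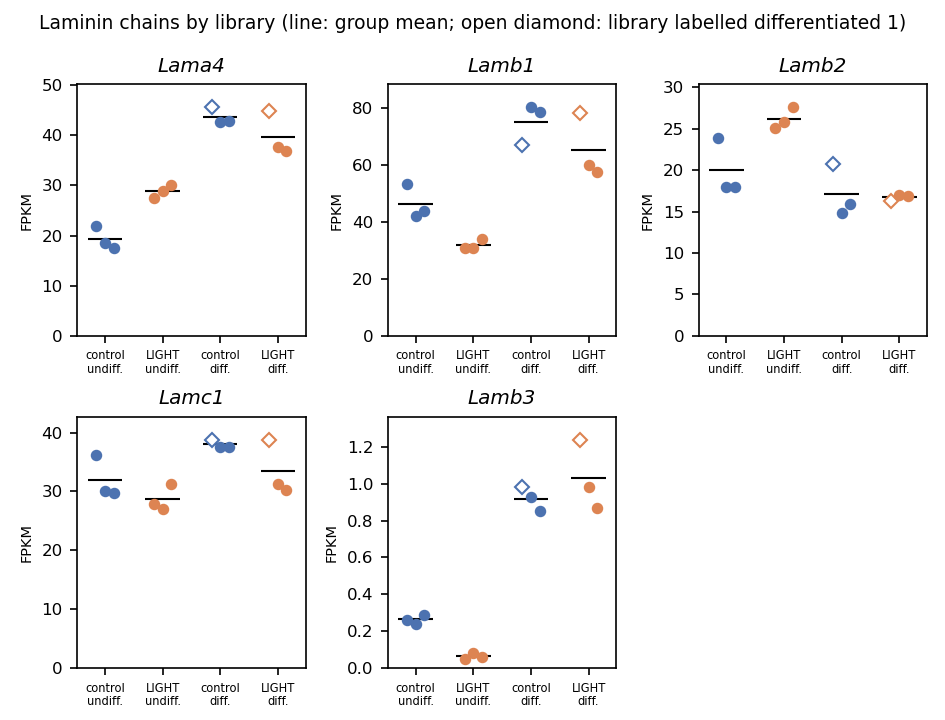
FPKM of 5 laminin chains by library in the 4 groups, with lines for group means and open diamonds for the libraries labelled NC-Diff 1 and LIGHT-Diff 1. Lama4, Lamb1 and Lamb3 lie higher after differentiation, and Lamb1 and Lamb3 lie lower in LIGHT-Undiff than in NC-Undiff.

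The stage differences without the 2 libraries had the same signs in the main members. In log2, control then LIGHT cells, Itga5 had -0.88 and -0.28, Itgav -1.54 and -1.15, Itgb5 -0.93 and -0.88 and Itgb1 -1.01 and -0.71. Of the laminin-binding alpha subunits Itga6 had 1.88 and 1.90, Itga7 6.26 and 4.78 and Itga3 -3.14 and -3.69, and Itgb3 had 0.92 and 0.52. Among laminin chains Lama4 had 1.30 and 0.42, Lamb1 0.93 and 0.93 and Lamb3 1.88 and 3.89. Each of these 11 members passed in both lines by edgeR. Itga1 had 0.82 ± 0.16 in control cells (edgeR adjusted p = 0.000162) and -0.24 ± 0.17 in LIGHT cells (edgeR adjusted p = 0.228). Itga11 had -1.06 ± 0.21 in LIGHT cells (edgeR adjusted p = 0.000223).

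Before differentiation the LIGHT line differed from the control line in 12 of the 30 tested members (40%), 5 higher and 7 lower, against 26.5% of all genes tested, 12.3% higher and 14.2% lower. Without the 2 libraries 14 were called, 7 higher and 7 lower, against 44.4% of all genes (22.3% higher and 22.1% lower), and all 12 were among them. Lama4 was higher in LIGHT-Undiff by 0.59 ± 0.10 log2 (edgeR adjusted p = 0.00134). Itga5 was lower by -0.59 ± 0.08 (edgeR adjusted p = 0.000193) and Lamb3 by -2.04 ± 0.33 (edgeR adjusted p = 0.000942). The calls of Itga5, Itgb7, Lama4 and Lamb3 held with any 1 library left out. The number called depended on the libraries: it was 6 without NC-Undiff 1, NC-Undiff 2 or NC-Undiff 3, 5 without LIGHT-Undiff 1, 4 without LIGHT-Undiff 2 and 7 without LIGHT-Undiff 3. The share of all genes called in these runs was not counted, so the lower numbers are not read as particular to the members.

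Smaller line differences concerned both receptors and chains. Itga6 was lower in LIGHT-Undiff by -0.51 ± 0.14 log2 (edgeR adjusted p = 0.0168), Lamb1 by -0.53 ± 0.14 (edgeR adjusted p = 0.0144) and Itgav by -0.36 ± 0.12 (edgeR adjusted p = 0.0409). Lamb2 was higher by 0.41 ± 0.12 (edgeR adjusted p = 0.0249) and Itga11 by 0.77 ± 0.25 (edgeR adjusted p = 0.0392). Itgbl1, a secreted protein with integrin beta-like repeats, had 2.37, 3.15 and 3.85 CPM in NC-Undiff and 8.21, 8.85 and 8.37 in LIGHT-Undiff, 1.44 ± 0.48 log2 higher (edgeR adjusted p = 0.0421). Itgb3bp was higher by 0.64 ± 0.20 (edgeR adjusted p = 0.032). Itga2b, the platelet fibrinogen receptor subunit, had 4.1, 4.44 and 4.31 CPM in NC-Undiff and 8.62, 8.9 and 7.78 in LIGHT-Undiff, a difference of 0.98 ± 0.36 log2 that did not pass (edgeR adjusted p = 0.0602). It passed without NC-Diff 1 (0.0106), NC-Diff 2 (0.0391), LIGHT-Diff 1 (0.0213) or the 2 libraries that go against their labels (3.46e-05). The platelet marker Gp1bb had 9.66 CPM in NC-Undiff and 25 in LIGHT-Undiff on average, while Pf4 and Gp9 averaged at most 0.461 CPM in any group. These smaller calls depended on single libraries, with edgeR adjusted p given here for each library left out. Itga6 was lost without NC-Undiff 1 (0.0702), LIGHT-Undiff 2 (0.0505) or LIGHT-Undiff 3 (0.0549). Lamb1 was lost without NC-Undiff 1 (0.0683), LIGHT-Undiff 1 (0.0527) or LIGHT-Undiff 2 (0.0558). Lamb2 was lost without NC-Undiff 2 (0.105), NC-Undiff 3 (0.0963) or any LIGHT-Undiff library (0.0516, 0.0629 and 0.0782). Itgb3bp was lost without NC-Undiff 2 (0.0722), NC-Undiff 3 (0.118), LIGHT-Undiff 1 (0.13) or LIGHT-Undiff 2 (0.0789). Itgav was lost without any NC-Undiff library (0.158, 0.0766 and 0.0507), LIGHT-Undiff 1 (0.11), LIGHT-Undiff 2 (0.159), NC-Diff 2 (0.0567) or LIGHT-Diff 3 (0.0533). Without any 1 of the 6 undifferentiated libraries the calls of Itga11 (0.0548 to 0.14) and Itgbl1 (0.0728 to 0.139) were lost, and that of Itgbl1 also without LIGHT-Diff 3 (0.05).

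After differentiation none of the 30 members was called between the lines by edgeR over 12 libraries, against 0% of all genes. At an unadjusted p under 0.05 it was 1 member, Itgb7, which had 2 to 9 counts in these libraries, beside 523 of all 12993 genes tested. DESeq2 called 0 members. Without the 2 libraries 10 members (33.3%) were called, 3 higher and 7 lower in the LIGHT line, against 31% of all genes (14.6% higher and 16.4% lower). The members' share lay near that background.

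The most clearly separated was Itga7. It had 26.6 and 27.8 CPM in LIGHT-Diff 2 and 3, against 65.2 and 62.9 in NC-Diff 2 and 3, -1.24 ± 0.12 log2 (edgeR adjusted p = 1.63e-07). With edgeR adjusted p in parentheses, Itgad was lower by -2.25 ± 0.25 (1.78e-06), Itga1 by -0.80 ± 0.18 (0.00204), Lamb1 by -0.52 ± 0.08 (7.55e-05), Itga6 by -0.49 ± 0.07 (2.47e-05), Lamc1 by -0.37 ± 0.08 (0.00146) and Lama4 by -0.28 ± 0.07 (0.00772). Higher in LIGHT cells, given in the same way, were Itgbl1 by 1.52 ± 0.19 (7.16e-06), Itga2b by 1.14 ± 0.18 (8.24e-05) and Itgb1 by 0.24 ± 0.07 (0.0122). Itgbl1 had 11.7, 4 and 3.51 CPM in NC-Diff and 3.49, 11.2 and 10.4 in LIGHT-Diff, and Itga2b had 11.7, 4.36 and 5.67 in NC-Diff and 5.11, 9.71 and 12.7 in LIGHT-Diff. In both, NC-Diff 1 and LIGHT-Diff 1 sit with the libraries of the other line. A call made here rests on 2 libraries a group.

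**Figure D4:**
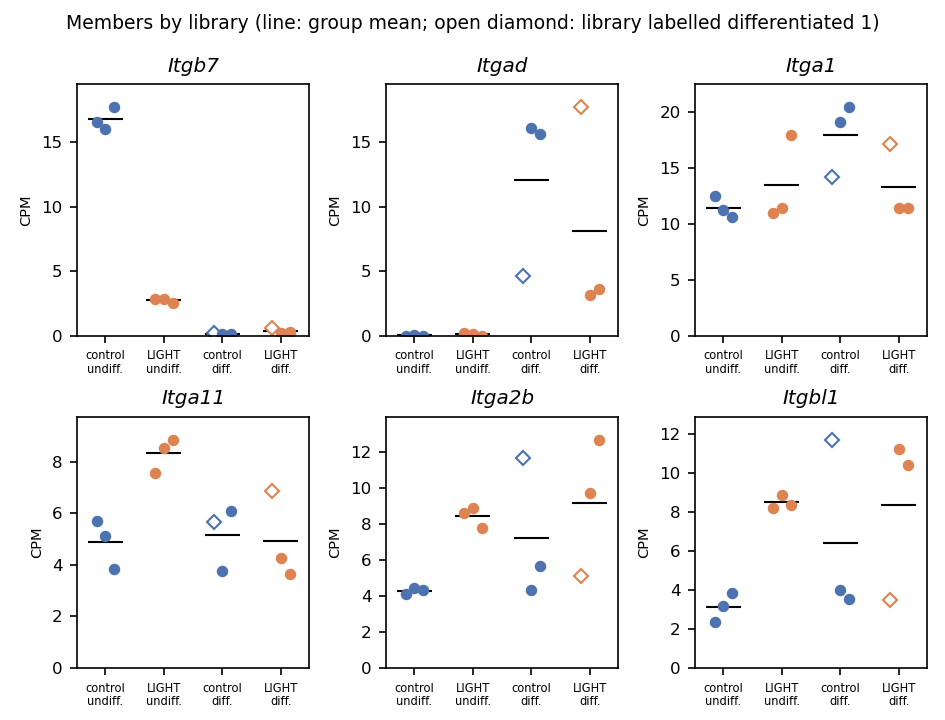
CPM of 6 members by library in the 4 groups; open diamonds are the libraries labelled NC-Diff 1 and LIGHT-Diff 1, and lines are means of the labelled groups. For Itgad, Itga2b and Itgbl1 the open diamonds stand with the libraries of the other line.

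The change with differentiation itself differed between the lines in 4 of 30 members (13.3%), 3 higher and 1 lower, against 9.34% of all genes, 5.08% higher and 4.26% lower. Lamb3 had an interaction of 2.18 ± 0.40 log2 (edgeR adjusted p = 0.00609), Itga5 of 0.56 ± 0.11 (0.00709) and Lama4 of -0.75 ± 0.14 (0.00672). A positive value is a more positive change in LIGHT cells, and edgeR adjusted p is in parentheses. Itgb7, kept through the undifferentiated libraries alone, had a fitted value of 3.74, given with no test. It rests on 3, 2 and 3 counts in NC-Diff and 9, 4 and 5 in LIGHT-Diff. The value of Lamb3 rests on 3, 6 and 4 counts in LIGHT-Undiff. For all 4 the lines differed before differentiation and their differentiated groups were closer, as described above. Without the 2 libraries 13 were called, 6 higher and 7 lower, against 31% of all genes (14.9% higher and 16.1% lower), and the same 4 were among them.

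**Figure D5:**
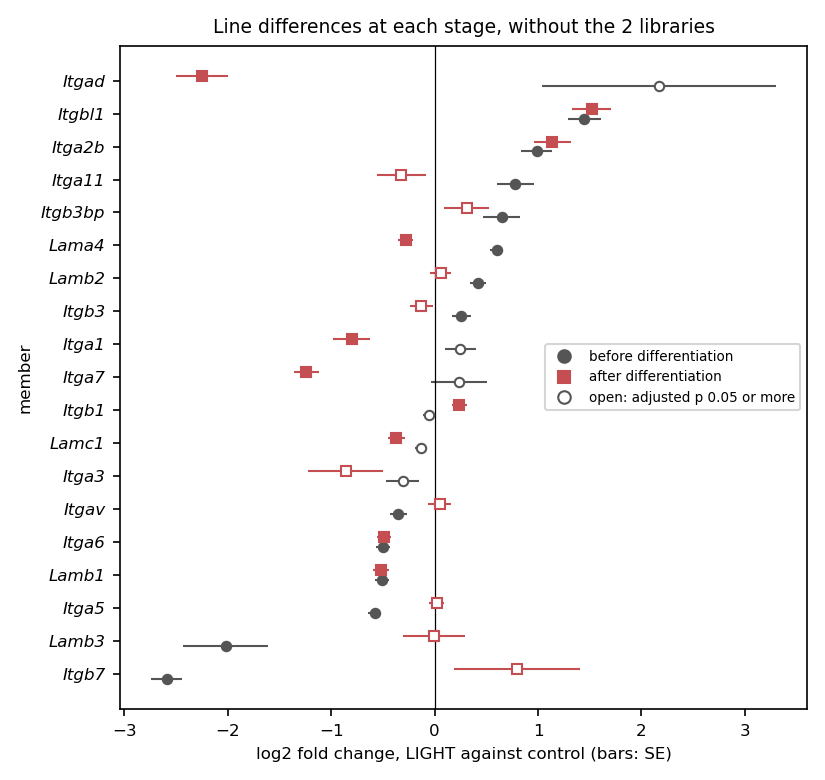
Log2 fold change of LIGHT against control, with bars for standard errors, before (circles) and after (squares) differentiation, all without the libraries labelled NC-Diff 1 and LIGHT-Diff 1; open symbols did not pass. Itga6, Lamb1, Itgbl1 and Itga2b lie on the same side of 0 at both stages, while Itga5, Lamb3 and Itgb7 lie below 0 before differentiation and near or above it afterwards.

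The genes around these receptors were counted by 3 lists of textbook partners. Of basement membrane partners, 17 of 22 were tested: 11 rose and 4 fell in control cells (88.2%, beside 63.9% of all genes) and 11 rose and 5 fell in LIGHT cells (94.1%, beside 58.6%). The tested partners include Col15a1, Smoc1 and Smoc2, with means of at most 0.647, 0.613 and 0.165 CPM in the stage where they were lower. The filter kept these genes through the other stage, so they support nothing about the shares. Col4a1, a collagen IV chain, rose by 1.54 ± 0.10 log2 in control cells (edgeR adjusted p = 4.58e-08), and Nid2, which links laminin to collagen IV, by 2.03 ± 0.14 in LIGHT cells (edgeR adjusted p = 1.17e-07). Of integrin ligands, 16 of 23 were tested: 2 rose and 9 fell in control cells (68.8%, near the background) and 4 rose and 8 fell in LIGHT cells (75%). The median log2 fold change of the tested ligands was -1.06 in control cells. Fibronectin itself, Fn1, named after its values were seen, averaged 3120 ± 505 CPM in NC-Undiff and 942 ± 70.1 in NC-Diff. Ctgf, a matricellular ligand, averaged 31.9 ± 1.36 CPM in NC-Undiff and 0.364 ± 0.156 in NC-Diff, lower by 6.40 log2 in the fit. A stage test is not given for Ctgf, since the filter kept it through the undifferentiated libraries alone. Ctgf supports nothing about the ligands' share or median. Postn, on the same list and also named after its values were seen, went the other way. It averaged 218 ± 15.5 CPM in NC-Undiff and 1350 ± 249 in NC-Diff, and 326 ± 15.3 in LIGHT-Undiff and 1290 ± 251 in LIGHT-Diff. Of adhesion adaptors and kinases, 25 of 26 were tested: 3 rose and 16 fell in control cells (76%) and 5 rose and 15 fell in LIGHT cells (80%). Actn1 and Zyx, actin-linked adaptors, fell by 1.90 and 1.71 log2 in control cells (edgeR adjusted p = 1.21e-09 and 1.2e-08), and Tns1 rose by 1.91 ± 0.09 (edgeR adjusted p = 3.12e-09). Counted without the 2 libraries, control cells had 11 higher and 5 lower for basement membrane partners, 2 and 11 for ligands and 5 and 16 for adaptors, beside 70.7% of all genes. In LIGHT cells they were 11 and 5, 5 and 10, and 6 and 17, beside 64.1%.

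Between the lines before differentiation 3 basement membrane partners were higher and 5 lower (47.1%), 5 ligands were higher and 5 lower (62.5%), and 4 adaptors were higher and 6 lower (40%), beside 26.5% of all genes. The shares without the 2 libraries were 64.7%, 93.8% and 56%, beside 44.4%. Npnt, the ligand of the integrin that contains Itga8, was lower by -2.89 ± 0.28 log2 (edgeR adjusted p = 2.87e-05). After differentiation none of the 3 lists had a call over 12 libraries by edgeR, beside 0% of all genes. At an unadjusted p under 0.05 it was 0 in each, beside 523 of all 12993 genes tested. Without the 2 libraries, 3 basement membrane partners were higher and 2 lower (29.4%), 8 ligands were higher and 6 lower (87.5%), and 8 adaptors were higher and 7 lower (60%), beside 31% of all genes. Of these, Mfge8, an RGD ligand, was higher in LIGHT cells by 1.31 ± 0.07 (edgeR adjusted p = 8.31e-11).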

How the data were processed

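Each library has 1 deposited table of expected counts and FPKM by gene symbol and length, as the file headers show. The authors' expected counts, which can hold fractions of a read, were rounded here. FPKM, as the authors deposited them, are scaled by gene length and library total. A gene absent from a table was taken as 0. The submitters' processing notes name the build mm8; aligner, counting program and use of strand were not given in the sources used here. PCR reads without molecular identifiers are not independent molecules, so intervals and floors cover counting error only. Members, lists and the naming rule were chosen with earlier results of these data known.

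All 12 libraries entered 1 quasi-likelihood fit in edgeR 4.0.16 under R 4.3.3, with a coefficient per group, TMM scaling and filterByExpr at a minimum count of 10. A gene was called at a Benjamini-Hochberg adjusted p under 0.05 over 12993 genes, or 13150 without the 2 libraries that go against their labels. CPM are scaled by TMM, and each printed ± after a fold change is a standard error. The fitting script was tested on simulated data. Other settings were RLE scaling, DESeq2 1.42.0, no low-count filter, library totals, a minimum count of 30, only the groups compared, a replicate block, and libraries left out. Library values are given for members that averaged at least 5 CPM in any group and were called between lines or in the interaction, or between stages with an absolute log2 fold of at least 1. Lamb3, below that level, and the sums by ligand class were added after values were seen. Results of some members, which the counts include, are not reported here. Up to 4 genes of smallest p were named per partner list and comparison. Same-numbered libraries correlated at -0.62 to 0.10 in their deviations from group means, and no pair of groups had all 3 over 0.1, so the numbers were not read as pairs.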

Additional observations from a re-analysis of the deposited data

Results flagged for a closer look

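Members whose change with differentiation differed between the lines by an interaction test are given here as values, in log2, with the LIGHT change minus the control change. Over 12 libraries these were Itgb7 at 3.74, Lamb3 at 2.18, Itga5 at 0.56 and Lama4 at -0.75. Without the libraries labelled NC-Diff 1 and LIGHT-Diff 1 the same 4 had 3.39, 2.01, 0.60 and -0.87.

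Further members passed that test without the 2 libraries and did not pass over 12. Among receptors these were Itga1 at -1.05, Itga7 at -1.48, Itga11 at -1.10, Itgad at -4.41, Itgav at 0.39, Itgb1 at 0.30 and Itgb3 at -0.39. Among laminin chains Lamb2 had -0.36. The value of Itgad rests on 1 count in NC-Undiff and 6 in LIGHT-Undiff. Itgb7 had at most 9 counts in a differentiated library and Lamb3 at most 6 in a LIGHT-Undiff library. The filter kept Itgad and Itgb7 through 1 stage alone, so their values are a description.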

How the results depend on the processing

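Leaving out the 2 libraries that go against their labels changed the number of members called between the lines after differentiation from 0 to 10, and for the interaction from 4 to 13. With a replicate block as well, an alternative chosen after seeing the data, these were 10 and 11. Leaving out 1 library at a time gave 16 to 22 members for differentiation in control cells (20 with all), 17 to 22 in LIGHT cells (20), 4 to 13 for the lines before differentiation (12), 0 to 0 after it and 4 to 5 for the interaction. With the replicate block over 12 libraries the counts were 19, 19, 8, 0 and 4, and Itga11, Itgav and Itgbl1 before differentiation had an edgeR adjusted p of 0.0505, 0.0724 and 0.0837 and Itgb2 in control cells 0.0516. The share of all genes called was counted only over 12 libraries and without the 2 libraries. Counts from the other runs are therefore not read as particular to the members. Directions were compared for 105 results, those of the members that met the naming rule and of Lamb3 and Itgb5. None that was called in either of the 2 runs compared changed direction. Signs of results called in neither run were not compared. With 3 libraries a group, the log2 differences of low members such as Itgal, Itga10 and Lama5 had wide standard errors.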
